A study of Mus musculus with 4 samples.

Results

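The 36 genes described here are nuclear receptors, their cofactors and the transcription factors that set the identity of hepatocytes. They were fixed by name and found as assembled loci that overlap GRCm38 exons of those genes, 36 of 21685 protein-coding genes considered. A locus on an exon was present for 35 of them in at least 1 library, and the vitamin D receptor (Vdr) had none in any. In all 4 libraries 28 had a usable level, and 27 passed the filter on low values and were tested. The study measured RNA from the livers of male C57BL/6 mice in 2 wild type libraries and 2 libraries homozygous for a disrupted hemojuvelin gene (Hjv knockout). Hemojuvelin is a BMP co-receptor on hepatocytes that drives expression of hepcidin, the iron-regulating hormone, and the knockout is present in the whole animal. Mice of both genotypes ate AIN-93G low iron food (2.5 mg/kg) for 50 days, starting at an age of 5 weeks, and liver was taken at 12 weeks. An iron-sufficient group is not analysed here, so both genotypes share the low iron diet.

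Nuclear receptors are transcription factors whose activity is set by small lipophilic ligands, such as bile acids, oxysterols, fatty acids, steroids and thyroid hormone. Many of those in liver bind DNA as a pair with a retinoid X receptor (RXR), and corepressors or coactivators are exchanged when ligand binds. HNF4A, the FOXA proteins and the C/EBP proteins hold open and activate the genes that make a hepatocyte, while the ligand-sensing receptors adjust lipid, bile acid, drug and glucose metabolism.

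If 1 step between the deposited confidence bounds is 1 fragment, the libraries hold 51.3 to 132 M fragments. Each library was assembled separately, which gave 1.48 to 2.15 loci per gene. The targeted gene (listed as Hfe2) had 9.22 and 29.6 scaled FPKM in wild type, no value in knockout 1 and 0.236 in knockout 2. FPKM counts the fragments on each kilobase of a transcript relative to all those mapped, and scaled FPKM are these values after division by a factor per library. Of hepatocyte markers, Ttr had 3713 to 5367 scaled FPKM, while Alb and Serpina1a had no used locus in any library, so a gene without a locus is not a gene at 0. The knockout libraries differed from each other more than the wild type libraries did, with an SD of log2 differences across 7928 genes of 0.646 against 0.421. Separate animals are not stated in the labels, so p-values cover the spread of these libraries and no more. In RNA of whole liver, fewer cells of a type and less RNA per cell cannot be told apart.

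The first comparison asked whether the level of these regulators differed between Hjv knockout and wild type liver. No regulator passed an adjusted p of 0.05 in limma, where 0% of all 7928 tested genes did, and the smallest adjusted p among the regulators was 0.402. By unadjusted p, the smallest values were those of Foxa2 and Rxra, at 1.88 and 2.64 times the wild type mean, followed by Pparg at 0.488 times. By the ratio of means, Rara and Nr1h2 came after Rxra, at 2.50 and 2.47 times. Knockout lay above wild type in every pair of libraries for 8 of the 27 tested regulators, where 22.3% of all tested genes did so. They lay below for 3 regulators, where 23.8% of all tested genes did so. The remaining 16 overlapped. At an unadjusted p under 0.05, limma gave 2 regulators higher, where 5.84% of all genes were, and 0 lower, where 5.35% of all genes were. The median log2 difference was 0.13 over the regulators and 0.017 over all tested genes. The split of 8 above and 3 below depended on the scale of the libraries. It was 11 and 1 with values as deposited, where the median of all genes moved to 0.19 and 35.9% and 9.21% of all genes lay above and below. It was 7 and 5 after quantile normalization, where 18.9% and 25.7% of all genes did. After a correction for GC content it was 6 and 5 of 28, where 22.5% and 23.4% of all genes lay above and below.

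**Figure D1:**
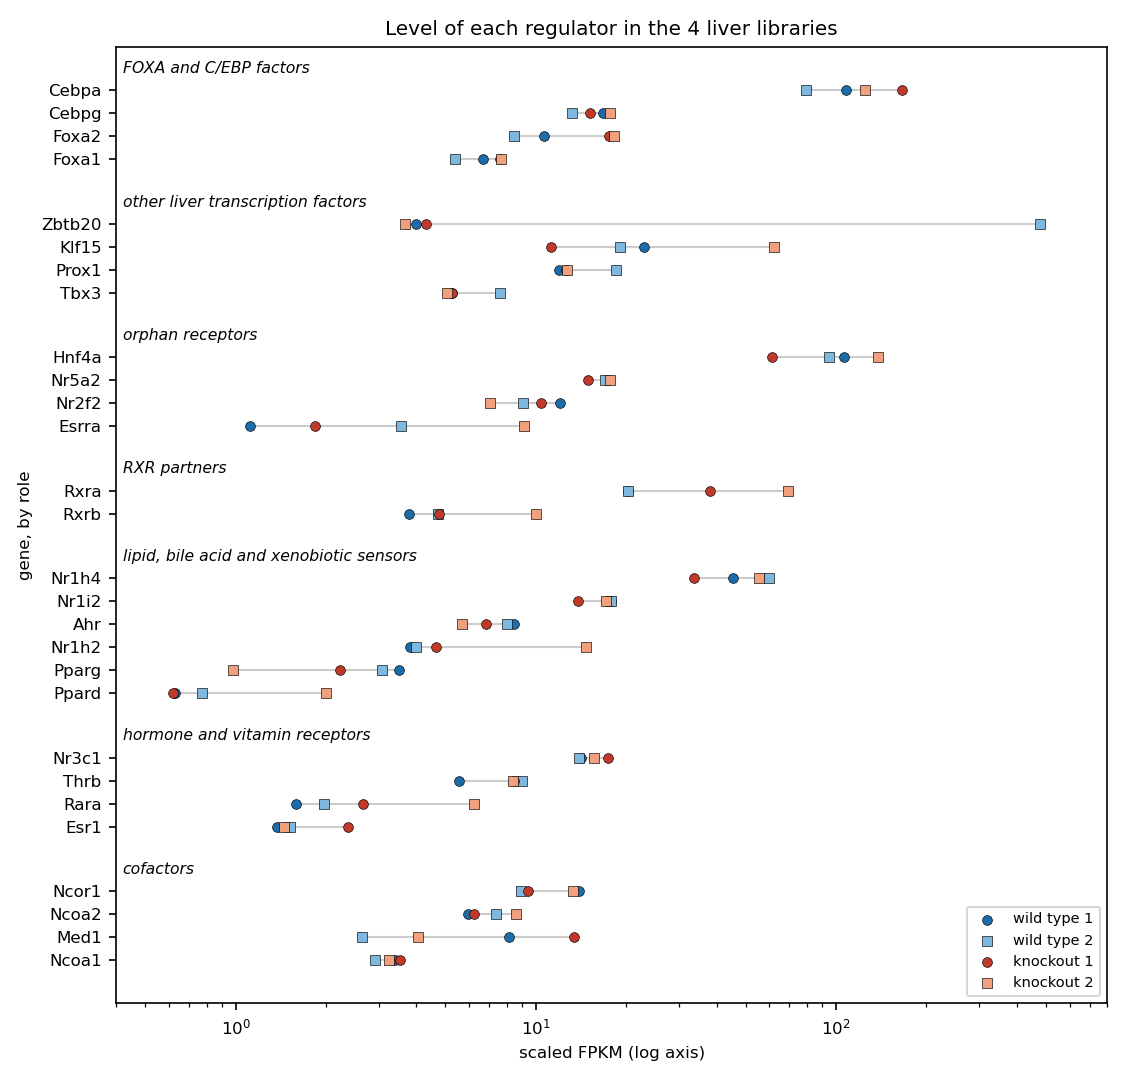
Scaled FPKM (log axis) of the 28 regulators with a value in all 4 libraries, grouped by role; each point is 1 library and the grey line joins the lowest and highest. Rxra and Foxa2 have both knockout points to the right of both wild type points, Pparg has them to the left, and the single point of Zbtb20 at 480 is wild type 2.

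The FOXA and C/EBP factors that could be tested lay on the higher side in knockout. Foxa1 and Foxa2 are pioneer factors that open liver chromatin during development, and Cebpa is a regulator of hepatocyte differentiation and energy metabolism. Of the 4 tested, 3 were above wild type without overlap, where 22.3% of all genes were, and none below, with a median log2 difference of 0.46. After correction for GC content 1 of 4 was above, with a median of 0.21. Foxa2 (chr2:148042877-148046969, minus strand) had 10.6 and 8.45 scaled FPKM in wild type against 17.5 and 18.2 in knockout. The knockout libraries were close to each other, and both were well clear of wild type. The means were 9.53 ± 1.52 and 17.9 ± 0.511 (SD, n = 2 each), a log2 difference of 0.85 ± 0.20 SE (limma, adjusted p = 0.402). Its log2 difference ran from 0.56 to 1.04 over 19 alternatives, with adjusted p from 0.0964 to 0.996. The loci of Foxa2 spanned 55.5% to 58.3% of a coding transcript in 3 libraries and 100% in knockout 2.

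Foxa2 carries more than 1 start in RefSeq, and the assembled loci ended at different places beside them. The promoter shown is that of the start furthest upstream, chr2:148046920-148047219 on the minus strand of GRCm38.p6 from RefSeq, printed because only knockout 2 reached it. The assembled 5′ end lay 141 bases upstream of that start in knockout 2, and 967 to 2511 bases downstream of it in the other libraries. The end at 967 bases, in knockout 1, is that of a locus left out of the Foxa2 value because its FPKM lay far above its bounds. Capitals mark a CCAAT box, here as its reverse complement, and a GC box (GGGCGG).
Foxa2 promoter: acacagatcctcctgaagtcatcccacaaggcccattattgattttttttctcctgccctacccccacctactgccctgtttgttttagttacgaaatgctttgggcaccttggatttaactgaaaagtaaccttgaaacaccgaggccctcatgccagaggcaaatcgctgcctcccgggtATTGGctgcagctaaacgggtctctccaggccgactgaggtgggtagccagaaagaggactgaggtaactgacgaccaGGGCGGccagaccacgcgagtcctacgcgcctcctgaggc

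Cebpa had 108 and 79.4 scaled FPKM in wild type against 166 and 125 in knockout, so the libraries of the genotypes did not overlap. The log2 difference was 0.63 ± 0.26 SE (limma, adjusted p = 0.465). Cebpa is one of the most GC-rich of these transcripts, at 62.6% GC, and after correction for GC content its difference was 0.041 and the groups overlapped. Foxa1 had 6.68 and 5.395 in wild type against 7.59 and 7.65 in knockout, a log2 difference of 0.30. Cebpg, a dimerisation partner of other C/EBP proteins, had 16.7 and 13.2 against 15.2 and 17.6, which overlapped.

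The other 3 members of these families could not be compared. Foxa3, which maintains glucose-related genes in adult liver, had 9.42 scaled FPKM in wild type 1 and no locus in wild type 2, against 15.0 and 20.6 in knockout. Cebpb, an acute-phase and gluconeogenic factor, had 91.4 in wild type 2, 75.1 in knockout 1 and 42.4 in knockout 2, and its locus in wild type 1 was shared with Tmem189. The Cebpb loci spanned 32.5%, 30.2% and 97.5% of a coding transcript in these libraries, so the values are not alike in extent. Cebpd, an acute-phase factor, was seen only as fragments, at 8.04 over 7.82% of a transcript in wild type 1 and 3.42 over 29.7% in knockout 2.

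The orphan receptors, those with no classical hormone ligand, showed no difference that cleared the spread of the libraries. All 4 tested overlapped, and their median difference of -0.10 on the log2 scale turned to 0.10 on the deposited scale. Hnf4a, the central activator of hepatocyte genes (chr2:163506808-163572910, plus strand), had 106 and 94.7 scaled FPKM in wild type against 61.3 and 138 in knockout. The wild type values lay between the knockout values. The log2 difference was -0.12 ± 0.41 SE (limma, adjusted p = 0.922), and it was 0.46 without knockout 1 and -0.70 without knockout 2.

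Hnf4a has a start used in adult liver (P1) and one further upstream (P2), and the assembled loci bear on which was used. In all 4 libraries the 5′ end of the loci used for Hnf4a lay 18 to 95 bases downstream of P1, at least 40316 bases from P2. Loci left out of its value did cover P2. In knockout 2 one of 616 bases had a deposited FPKM of 0.373, and loci given to the neighbouring R3hdml in wild type 1, wild type 2 and knockout 2 had 1.31, 1.12 and 4.26. The P1 promoter is chr2:163546905-163547204, plus strand, GRCm38.p6, from RefSeq. Capitals mark a CCAAT box and a pair of HNF1 half-sites (GTTAAT), all as their reverse complements.
Hnf4a P1 promoter: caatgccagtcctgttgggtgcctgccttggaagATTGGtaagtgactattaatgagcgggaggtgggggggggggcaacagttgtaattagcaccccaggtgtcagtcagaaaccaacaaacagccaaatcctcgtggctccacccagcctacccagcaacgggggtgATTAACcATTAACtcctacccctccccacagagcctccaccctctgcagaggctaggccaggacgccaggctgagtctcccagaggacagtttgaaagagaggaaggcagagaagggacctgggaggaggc

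Nr5a2 (LRH-1), a regulator of bile acid synthesis, had 17.3 and 17.1 scaled FPKM in wild type against 14.9 and 17.6 in knockout. Nr2f2 (COUP-TFII) had 12.1 and 9.07 against 10.4 and 7.06. Esrra, which drives mitochondrial genes, had 1.12 and 3.56 against 1.84 and 9.13, so its spread within each genotype was as wide as between them. Nr2f6, another COUP-TF family receptor, had a value only in wild type 1, at 13.0 over 19.4% of a transcript, because its other loci were shared with Ocel1 or given to it.

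Rxra and Rxrb, the RXR genes among these regulators, were higher in both knockout libraries. Rxra encodes the main hepatic partner of the receptors for bile acids, oxysterols, fatty acids, xenobiotics and thyroid hormone (chr2:27676440-27762957, plus strand). It had 20.4 and 20.2 scaled FPKM in wild type against 38.0 and 69.0 in knockout. The wild type libraries were nearly equal, and the lower knockout library was still 1.87 times their mean. The locus in knockout 2 had a deposited FPKM of 65.9 with bounds of 66.1 and 372, so it lay just under its own lower bound. Leaving out loci of wide bounds did not remove it. The means were 20.3 ± 0.0992 and 53.5 ± 21.9 (SD, n = 2 each), and the log2 difference was 1.30 ± 0.32 SE (limma, adjusted p = 0.402). The difference was 1.00 after correction for GC content and ran from 0.87 to 1.72 over 19 alternatives, with adjusted p from 0.0226 to 0.996. Rxrb had 3.79 and 4.72 in wild type against 4.76 and 10.02 in knockout, which separated by a small margin. Its log2 difference of 0.61 (limma, adjusted p = 0.558) was 0.015 after correction for GC content, when the groups overlapped. After quantile normalization 1 of these 2 RXR genes lay above wild type without overlap, where 18.9% of all genes did.

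The assembled extent of Rxra also differed by genotype. The single locus ended at base 27759585 in wild type 1 and 27759568 in wild type 2, and at 27762914 and 27762911 in knockout 1 and 2, near the annotated gene end. It covered 1805 and 2046 exonic bases in wild type against 5134 and 5416 in knockout, so the FPKM were averaged over unequal lengths. The part of this in the level difference was not tested. At the 5′ side the locus began 209 bases downstream of the first RefSeq start in wild type 1 and knockout 1. It began 734 and 1254 bases upstream of it in wild type 2 and knockout 2. The promoter of this start is shown because the difference of this gene was the largest upward one among the tested regulators. It is chr2:27676951-27677250, plus strand, GRCm38.p6, from RefSeq, with 83% GC. Capitals mark GC boxes on either strand.
Rxra promoter: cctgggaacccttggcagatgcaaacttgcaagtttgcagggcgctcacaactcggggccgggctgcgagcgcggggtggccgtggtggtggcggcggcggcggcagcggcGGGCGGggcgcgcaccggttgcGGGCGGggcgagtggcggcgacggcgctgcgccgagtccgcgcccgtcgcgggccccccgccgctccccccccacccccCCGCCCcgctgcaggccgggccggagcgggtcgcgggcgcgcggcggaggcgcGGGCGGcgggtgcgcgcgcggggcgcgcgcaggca

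Of 5 tested lipid, bile acid and xenobiotic sensors, 3 were below wild type without overlap and 1 above, where 23.8% and 22.3% of all genes were. Their median log2 difference was -0.27. With values as deposited 1 was below and 1 above, with a median of -0.065. Pparg, the fatty acid receptor best known for fat storage, lies at chr6:115360951-115490399, plus strand. It had 3.51 and 3.07 scaled FPKM in wild type against 2.23 and 0.980 in knockout. Both knockout values were below both wild type values, although knockout 2 was at 0.439 times knockout 1. The log2 difference was -0.76 ± 0.30 SE (limma, adjusted p = 0.451), and -0.75 after correction for GC content. Ahr, the receptor for aryl hydrocarbons and no nuclear receptor, had 8.43 and 8.01 against 6.84 and 5.66, a log2 difference of -0.35 (limma, adjusted p = 0.539). Nr1i2 (PXR), a xenobiotic sensor, had 17.8 and 17.8 against 13.8 and 17.2, so knockout 2 was just below wild type. With values as deposited its log2 difference was -0.00135.

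**Figure D2:**
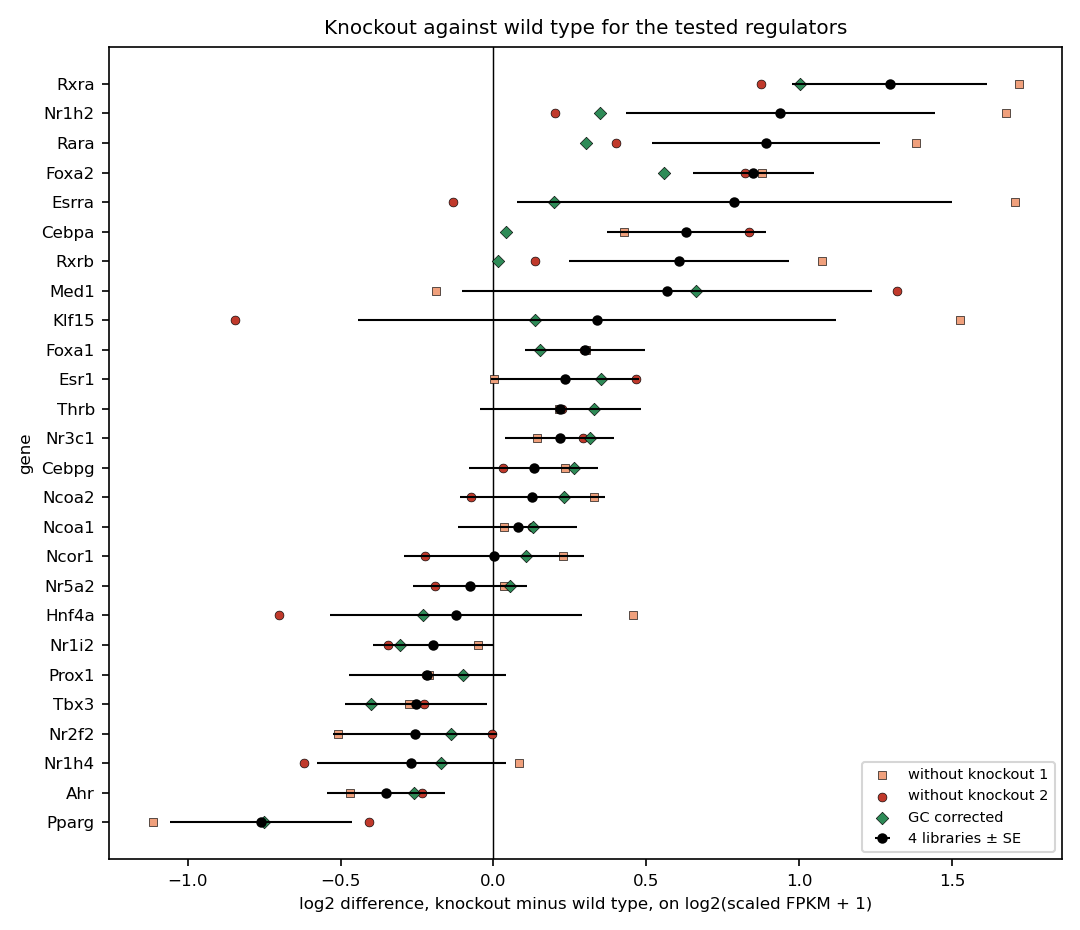
Log2 difference, knockout minus wild type, on log2(scaled FPKM + 1), for 26 of the 27 tested regulators; black points with bars are the fit to 4 libraries with its SE, and coloured points are the same value without 1 knockout library or after GC correction. Zbtb20, at -3.30, is not drawn. Foxa2 stays near 0.85 without either knockout library, whereas Klf15 and Hnf4a change sign.

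The Pparg loci in wild type began near the upstream RefSeq start, 195 and 188 bases downstream of it, and 120 bases upstream of it in knockout 2. In knockout 1 the nearest 5′ end was 78701 bases downstream, at a locus left out because its FPKM lay far above its bounds. The locus used there began at base 115441621 and spanned 67.9% of a coding transcript. The promoter at the upstream start is chr6:115360894-115361193, plus strand, GRCm38.p6, from RefSeq, with 80.3% GC. It is shown because the loci of wild type and knockout 2 began near it. Those loci also contain the other RefSeq starts of Pparg, so which isoform was made cannot be told. Capitals mark a GC box as its reverse complement and a nuclear receptor half-site (AGGTCA).
Pparg upstream promoter: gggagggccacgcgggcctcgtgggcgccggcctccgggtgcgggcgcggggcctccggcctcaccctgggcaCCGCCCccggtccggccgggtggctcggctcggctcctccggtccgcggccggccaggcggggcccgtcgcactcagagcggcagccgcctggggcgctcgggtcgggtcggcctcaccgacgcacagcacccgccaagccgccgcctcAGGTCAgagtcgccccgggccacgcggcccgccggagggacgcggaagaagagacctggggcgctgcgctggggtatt

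The bile acid receptor FXR (Nr1h4) had 45.4 and 59.9 scaled FPKM in wild type against 33.6 and 55.3 in knockout, which overlapped. The oxysterol receptor LXR beta (Nr1h2) had 3.80 and 4.001 against 4.63 and 14.6, with knockout 1 just above wild type. Its log2 difference was 0.94 (limma, adjusted p = 0.535), and 0.35 after correction for GC content. LXR alpha (Nr1h3), the main hepatic form, had 16.8 in wild type 2, 16.0 in knockout 1 and 40.2 in knockout 2, and its locus in wild type 1 was shared with Madd. Ppard had 0.626 and 0.770 against 0.620 and 1.99 and did not pass the filter.

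CAR (Nr1i3), the xenobiotic receptor that responds to phenobarbital-like compounds, had no value under the main assignment. Its loci overlap an isoform of Tomm40l, the neighbouring gene on the other strand, and the libraries carry no strand, so reads of both cannot be told apart. When shared loci were given to the RefSeq gene whose body holds at least 80% of them, an alternative chosen after seeing the data, Nr1i3 had 23.5 and 23.5 scaled FPKM in wild type against 53.9 and 65.6 in knockout. The lower knockout value was more than double either wild type value, and the knockout libraries differed little. In that fit, where 22.2% of all genes lay above without overlap, the log2 difference was 1.30 ± 0.19 SE (limma, adjusted p = 0.302). Under the same alternative Tomm40l had 8.97 and 10.1 against 15.4 and 16.7, so it too was higher in knockout. The Nr1i3 loci began 5 to 30 bases upstream of its RefSeq start in all 4 libraries. That promoter, chr1:171213720-171214019, plus strand, GRCm38.p6, from RefSeq, is shown because every library reached its start. Capitals mark an E-box (CACGTG).
Nr1i3 promoter: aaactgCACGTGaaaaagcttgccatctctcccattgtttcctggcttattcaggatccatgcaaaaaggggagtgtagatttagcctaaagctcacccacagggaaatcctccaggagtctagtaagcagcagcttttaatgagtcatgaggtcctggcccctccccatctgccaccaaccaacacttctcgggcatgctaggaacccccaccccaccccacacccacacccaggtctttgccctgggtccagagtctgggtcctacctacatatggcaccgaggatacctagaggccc

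The hormone and vitamin receptors held 2 of 4 tested genes above wild type without overlap, where 22.3% of all genes were, and none below. Rara, the retinoic acid receptor alpha, had 1.58 and 1.97 scaled FPKM in wild type against 2.65 and 6.22 in knockout, with knockout 2 far above the rest. The log2 difference was 0.89 ± 0.37 SE (limma, adjusted p = 0.469), and 0.30 after correction for GC content, when the groups still did not overlap. Nr3c1, the glucocorticoid receptor, had 14.2 and 13.9 against 17.4 and 15.6, a log2 difference of 0.22 (limma, adjusted p = 0.6503). The oestrogen receptor Esr1 had 1.37 and 1.52 against 2.37 and 1.45. The thyroid hormone receptor Thrb, the main hepatic form, had 5.56 and 9.01 against 8.46 and 8.40. Both overlapped. Thra had 5.44 and 2.60 in wild type and 3.65 in knockout 2, over 17.4% to 46.2% of a transcript. These values come from loci outside Nr1d1, which overlaps the end of Thra on the other strand. Loci over that overlap were given to Nr1d1, since reads there cannot be told apart.

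The cofactors all overlapped before correction for GC content, with a median log2 difference of 0.10. The corepressor Ncor1 had 13.96 and 8.91 scaled FPKM in wild type against 9.42 and 13.3 in knockout. The coactivator Ncoa1 had 3.40 and 2.90 against 3.52 and 3.25, and Ncoa2 had 5.94 and 7.36 against 6.23 and 8.57. Med1, the Mediator subunit that contacts liganded receptors, had 8.17 and 2.63 against 13.4 and 4.06, so replicate 1 exceeded replicate 2 by over 3 times in both genotypes.

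The other liver transcription factors also overlapped before correction for GC content. Klf15, a glucocorticoid-induced regulator of amino acid and glucose metabolism, had 23.0 and 19.1 scaled FPKM in wild type against 11.2 and 62.1 in knockout. The knockout libraries lay on either side of wild type, 5.54 times apart. Prox1, a hepatoblast factor kept in adult hepatocytes, had 11.9 and 18.4 against 12.6 and 12.7. Tbx3, a factor of hepatoblast proliferation, had 5.27 and 7.59 against 5.27 and 5.05. Zbtb20, a repressor of alpha-fetoprotein, had 3.99 and 480 against 4.30 and 3.66. The value of 480 came from 1 locus with a deposited FPKM of 15007 and bounds of 1.01 and 19451, and without loci of such wide bounds wild type 2 had 4.44.

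Leaving out knockout 1 changed the calls. Without it 5 regulators passed the adjusted threshold in limma: Rxra (1.72), Nr1h2 (1.67), Klf15 (1.52) and Rara (1.38) higher, and Pparg (-1.11) lower. In that fit 4.25% of all 7867 genes were called higher and 1.54% lower, and a single knockout library was assumed to vary like the wild type pair. Without knockout 2 none of the regulators passed, where 0.0886% of all genes were called higher, and without wild type 2 none did, where 0.0126% were called lower. Without wild type 1 Zbtb20 passed, with a log2 difference of -6.60, where 0.0253% of all genes were called lower.

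GC content moved with the difference between the knockout libraries. Across 7928 genes the log2 ratio of knockout 2 to knockout 1 had a Spearman correlation with the GC content of the transcript of 0.478, and across the 27 regulators of 0.502, as a description of these libraries. For knockout 1 over wild type 1 and wild type 2 the correlation across genes was 0.150 and -0.0237, and for knockout 2 it was 0.553 and 0.440. Of the regulators above wild type, Rxra, Foxa2, Rara and Nr3c1 stayed apart after correction for GC content, at 1.00, 0.56, 0.30 and 0.32 on the log2 scale. Cebpa, Rxrb, Nr1h2 and Foxa1 then overlapped. Pparg, Ahr and Nr1i2 stayed below wild type, at -0.75, -0.26 and -0.31. Others lay apart only after this correction: Esr1 and Ncoa1 above, at 0.35 and 0.13, and Tbx3 and Ppard below, at -0.40 and -0.21.

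**Figure D3:**
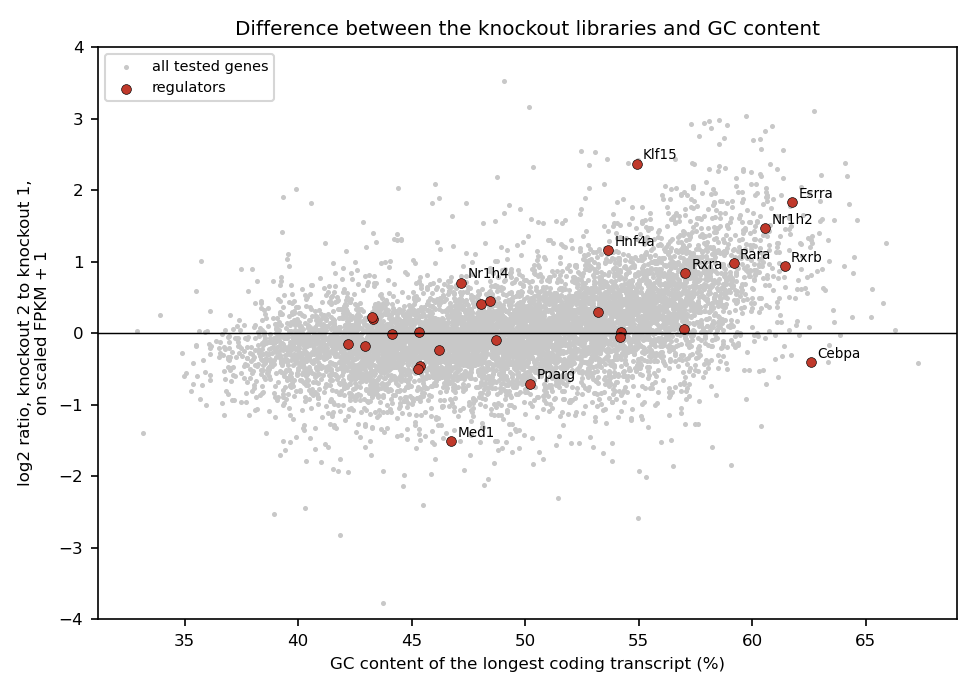
Log2 ratio of knockout 2 to knockout 1 on scaled FPKM + 1 (vertical axis) against GC content of the longest coding transcript in percent (horizontal axis); grey points are 7928 tested genes, of which 5 lie outside the drawn range, and red points are the 27 regulators. Ratios are higher among GC-rich genes, and Klf15, Esrra and Nr1h2 are the highest of the regulators.

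The second comparison set the 28 regulators with a value in all 4 libraries in order of abundance within each genotype. FPKM are per kilobase, so levels of different genes can be set side by side, with the limit that the assembled extent differed between genes and libraries. Klf15 loci, for one, spanned 100% of a coding transcript in wild type 1 and 51.4% in wild type 2. The part of extent and GC content in the order was not tested. Genes without a value in some library, such as Nr1h3, Cebpb and Foxa3, have no place in this order. Leaving Zbtb20 aside for its inflated locus, the highest of the 28 in wild type were Hnf4a (101) and Cebpa (93.7), followed by Nr1h4 (52.6), Klf15 (21.03), Rxra (20.3) and Nr1i2 (17.8), in mean scaled FPKM. The highest in knockout were Cebpa (145) and Hnf4a (99.6), followed by Rxra (53.5), Nr1h4 (44.4), Klf15 (36.7) and Foxa2 (17.9). Hnf4a and Cebpa overlapped in their libraries in both genotypes, and in wild type both were clear of Nr1h4, which was clear of Klf15. At the bottom lay Ppard, Esr1 and Rara in wild type and Ppard, Pparg and Esr1 in knockout. Among tested genes, Hnf4a stood at percentile 93.6 of level in wild type and 93.9 in knockout, and Pparg moved from percentile 25.2 to 2.64. Neighbours in the order overlapped for 19 of 27 pairs in wild type and 22 of 27 in knockout, so most adjacent ranks do not differ beyond the spread.

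The order of the genotypes was described by a Spearman correlation across the 28 regulators of 0.770, or 0.915 without Zbtb20. Between the wild type libraries it was 0.834, or 0.933 without Zbtb20, and between the knockout libraries 0.822, or 0.812 without Zbtb20. Of the 28, 16 moved by 2 ranks or fewer, and 5 moved by 5 or more. By group means, Nr1h2 went from rank 22 to 13, Foxa2 from 14 to 6, and Med1 from 20 to 15. Ahr went from 15 to 20 and Zbtb20 from 1 to 24. Ranked library by library, Foxa2 stood at 13 and 15 in wild type against 5 and 6 in knockout, and Ahr at 14 and 16 against 17 and 21. Nr1h2 held rank 21 in every library but knockout 2, where it was 11, so its move rests on that library. Med1 stood at 15 and 25 against 10 and 23, which overlapped. Zbtb20 was at rank 1 only in wild type 2, and at 20 in wild type 1 against 22 and 24.

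**Figure D4:**
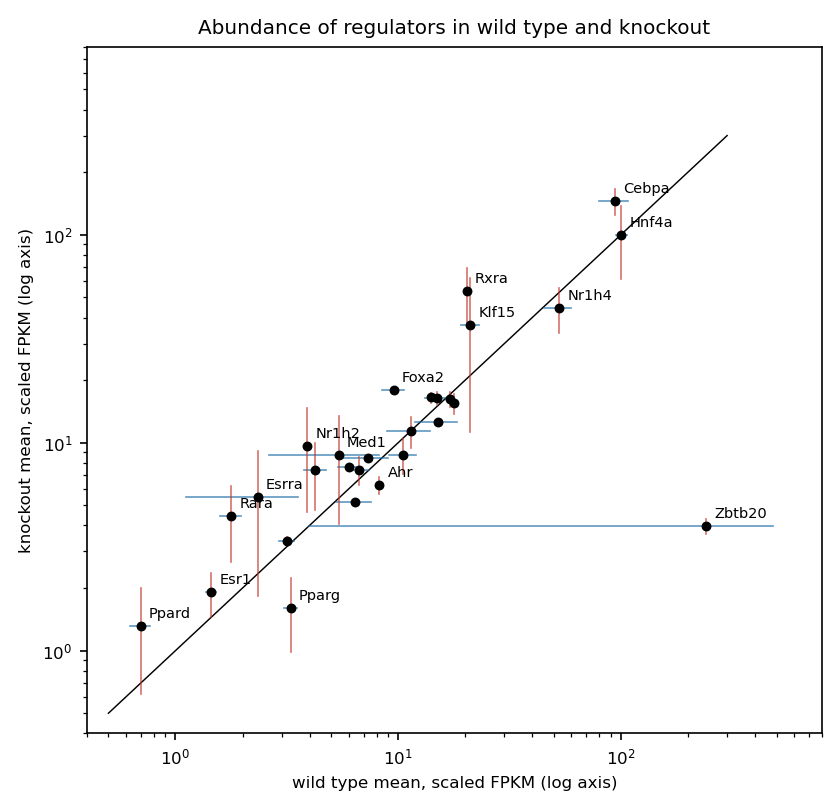
Mean scaled FPKM in knockout (vertical, log axis) against wild type (horizontal, log axis) for 28 regulators; blue bars join the 2 wild type libraries, red bars the 2 knockout libraries, and the line marks equal levels. Rxra and Foxa2 lie above the line with both knockout values, Pparg lies below it, and Zbtb20 is far to the right through wild type 2 alone.

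The annotated starts of the regulators were compared with the assembled 5′ ends. These include ends of loci left out of the values for sharing with another gene or for an FPKM far above their bounds. RefSeq gave 46 starts for 30 of the 36 genes. Their promoters, 250 bases before to 50 after the start, had a median CpG observed to expected ratio of 0.587, against 0.384 over all 32851 promoters, and a median GC content of 62.5% against 52.7%. Of the 20 genes with a ratio of at least 0.6, an assembled 5′ end lay within 150 bases of a start for 3, 4 and 3 in wild type 1, wild type 2 and knockout 1, and for 11 in knockout 2. Of the 9 genes with a lower ratio and a locus, it did for 5, 4, 6 and 6. The deepest library thus reached more starts in CpG-rich promoters, and the part of depth in this was not tested.

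**Figure D5:**
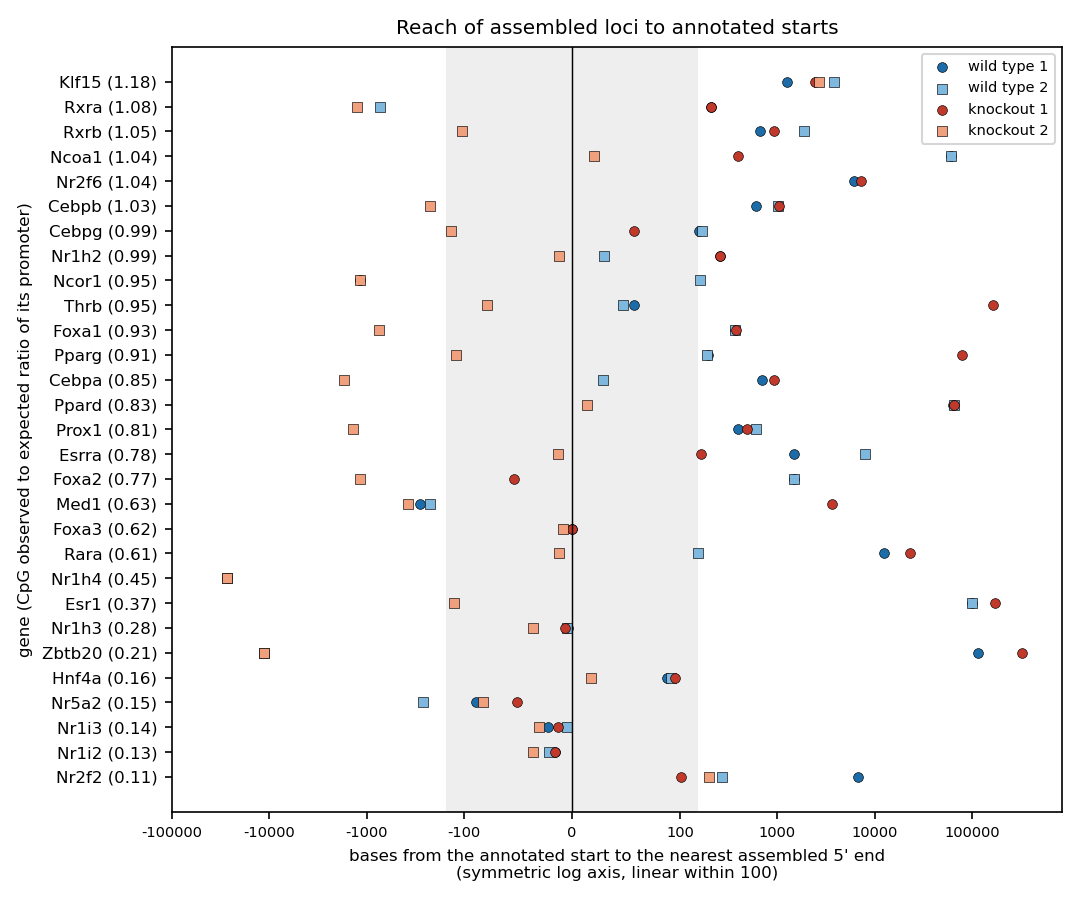
Bases from an annotated RefSeq start to the nearest assembled 5′ end (symmetric log axis, positive is downstream) for each regulator with a start and a locus, each point a library, using for each gene the start that any library came closest to; genes are sorted by CpG ratio, given in brackets. The grey band marks 150 bases on either side, where Hnf4a, Nr1i3 and Nr1i2 have all 4 libraries, while Klf15 has none.

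Motifs were searched by letters on both strands in the 46 promoters. The GC box GGGCGG was in 58.7% of them, against 35.7% of all promoters of the same length, and the CCAAT box CCAAT in 41.3% against 37.4%. The nuclear receptor half-site AGGTCA was in 15.2% against 16.3%, the HNF1 half-site GTTAAT in 10.9% against 7.10%, and the E-box CACGTG in 10.9% against 7.15%. TATAAA was in 17.4% against 13.6%, the forkhead element TGTTTAC in 4.35% against 3.65%, and the C/EBP element TTGCNNAA in 8.70% against 10.8%. The HNF4 element CAAAGTCCA was in 0 of 46 and in 0.475% of all. In the printed promoters no capitals of different motifs overlap. A match describes letters and is no bound site.

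Genes known to respond to these receptors, and further regulators, were given by 13 lists fixed by name, again with no gene past an adjusted p of 0.05. Of all tested genes 22.3% lay above wild type without overlap and 23.8% below. These shares were, with values as deposited, 35.9% and 9.21%, and after quantile normalization 18.9% and 25.7%. Glucocorticoid receptor targets had the lowest median: of 10 tested, 0 were above wild type without overlap and 6 below, with a median log2 difference of -0.47. The deposited scale gave 1 above and 5 below, with a median of -0.27. The median was -0.39 after correction for GC content, and -0.46 and -0.65 without knockout 1 and knockout 2. The list holds Dusp1, a MAP kinase phosphatase, with 23.2 and 37.9 scaled FPKM in wild type against 4.67 and 4.13 in knockout. Tdo2, a tryptophan-degrading enzyme, had 1013 and 889 against 401 and 543, and Tat, a tyrosine-degrading enzyme, had 456 and 408 against 246 and 239. Nr3c1 itself was not lower, at 14.2 and 13.9 against 17.4 and 15.6.

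PPAR targets had 1 of 22 above and 10 below, with a median of -0.25, and after correction for GC content 4 above and 10 below. On the deposited scale 2 were above and 3 below, with a median of -0.058, and after quantile normalization 2 and 6, with -0.24. Fabp4, a fatty acid binding protein, had 50.4 and 38.9 scaled FPKM in wild type against 6.09 and 4.52 in knockout, a log2 difference of -2.86 (limma, adjusted p = 0.166). Plin2, a lipid droplet coat protein, had 245 and 223 against 98.9 and 102, and Cd36, a fatty acid transporter, had 40.9 and 21.5 against 13.8 and 12.5. Ppara, the main hepatic PPAR, had 47.7 and 55.6 against 41.2 and 40.0, so its scaled level, like that of Pparg, was lower in both knockout libraries.

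The other nuclear receptors had 1 of 10 tested above and 4 below, with a median of -0.16. On the deposited scale 1 was above and none below, so Ppara did not stay below, with a median of 0.0087, and after correction for GC content 0 and 3, with -0.059. On the main scale the testicular receptors Nr2c2 and Nr2c1 were lower beside Ppara, with log2 differences of -0.31 and -0.30. Thyroid hormone receptor targets had 1 of 9 above and 4 below, with a median of -0.15, and with values as deposited 1 and 2, with 0.050. The malic enzyme Me1 had 166 and 187 scaled FPKM against 59.0 and 57.2, and Thrsp, a lipogenic protein, had 316 and 355 against 270 and 154. Cyp7a1, the rate-limiting enzyme of bile acid synthesis, had 6.03 and 12.4 against 16.3 and 26.4. It is also 1 of 10 tested FXR targets, of which 1 was above and 3 below (2 and 1 with values as deposited, when the median went from -0.13 to 0.076). Those below include the transporter Abcb4 and the bile acid ligase Slc27a5 at -0.56 and -0.34.

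HNF4A and C/EBP targets had 2 of 14 above and 6 below, with a median of -0.29. Values as deposited gave 3 above and 5 below, with a median of -0.079, and after quantile normalization the median was -0.17. Apoa1, the main apolipoprotein of HDL, had 2643 and 1602 scaled FPKM against 3421 and 5010, and Fgg, the fibrinogen gamma chain, had 1368 and 1307 against 929 and 509. Tdo2, at -1.02, and Tat are in this list as well as among glucocorticoid receptor targets, so the counts of these lists share genes. PXR and CAR targets had 2 of 11 above and 0 below, the exporter Abcc3 and the glutathione transferase Gstm1 at 0.63 and 0.34. Their median was 0.15, and 0.36 with values as deposited, when 3 were above and 0 below. This direction was not stable, since the median was -0.35 without wild type 2. It was 0.22, 0.11 and 0.0055 without wild type 1, knockout 1 and knockout 2. LXR targets had 2 of 9 above and 3 below, with Abcg8, a sterol exporter, at 0.54, and Smpdl3a at -0.28. Abcb4, at -0.56, is in this list as well as among FXR targets. LXR targets with values as deposited had 2 above and 1 below. AHR targets had 0 of 4 above and 1 below, the quinone reductase Nqo1 at -0.33. Retinoid targets had 1 of 5 in each direction, Lrat, which stores retinol as esters, at 0.47, and Rdh16, a retinol dehydrogenase, at -0.74. Targets of ERR alpha and the vitamin D receptor had 0 of 5 above and 3 below, the respiratory genes Cox5a, Ndufa4 and Atp5b at -1.12, -0.69 and -0.31. Only 1 of these 5 targets was below with values as deposited, with a median of -0.10, and 1 after quantile normalization.

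Among further liver-enriched transcription factors 12 of 30 lay above and 5 below, with a median of 0.13, and after correction for GC content 7 and 6. Mlxipl, the glucose-responsive factor ChREBP, had 24.2 and 19.4 scaled FPKM against 35.4 and 57.5, and Atf5 had 60.0 and 50.0 against 71.8 and 190. Foxo1, an insulin-restrained factor, had 22564 and 11.2 against 7.64 and 6.70, with wild type 1 far from the other libraries. Its wild type mean of 11288 ± 15947 (SD, n = 2), and so the size of its difference, rests on wild type 1. Further receptor coregulators had 7 of 29 above and 2 below, with Gps2, a subunit of the NCoR complex, at 1.38, and Lcor and Prmt1 at -0.38 each.

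Markers of other cell types were measured beside these genes, and their levels were summed over those with a value in all 4 libraries. Counts without overlap are on the main scale only, where 22.3% of all tested genes lay above wild type and 23.8% below. With values as deposited those shares were 35.9% and 9.21%. Kupffer cell and macrophage markers had 0 of 10 above and 4 below, and their sums over 10 of 11 were 150 and 183 scaled FPKM in wild type against 121 and 185 in knockout. Stellate cell markers had 3 of 6 above and 0 below, with sums of 91.2 and 75.1 against 103 and 81.5. Endothelial markers had 1 of 10 above and 1 below, with sums of 65.5 and 79.6 against 72.5 and 94.8. Each of these sums overlapped between genotypes. Most of the stellate sums was Dcn, at 70.5 and 57.7 against 73.1 and 60.3, so they say little of the other markers. For cholangiocyte markers 2 of 6 had a value in all 4 libraries, with sums of 33.4 and 23.1 against 26.1 and 13.6, and Krt7 and Krt19 had one only in knockout 2. For lymphocytes 1 of 9 did, with 0.909 and 1.27 against 2.73 and 0.391, and for neutrophils 2 of 5, with 3.73 and 3.90 against 2.15 and 2.71. Erythroid markers had none in all 4. Hepatocyte markers had 1 of 8 above and 4 below, with sums over 9 of 12 of 10916 and 11595 against 12563 and 13059. The neutrophil sums lay lower and the hepatocyte sums higher in both knockout libraries. Ttr and Apoa1 weigh most in the hepatocyte sums, with Apoa1 at 2643 and 1602 against 3421 and 5010. The part of cell types in the differences of the regulators was not tested.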

How the data were processed

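RNA was sequenced with the TruSeq RNA kit, which does not mark strand. Per the submitters' processing notes the data were processed with FastQC, TopHat and Cufflinks (no versions given) on mm9. The deposited FPKM and their bounds, made by the authors with Cufflinks, are per locus assembled in each library, without gene names. Positions fit GRCm38, so loci were matched to GENCODE M21 protein-coding genes. Each gene took the FPKM of its loci averaged in proportion to their exonic bases, where they spanned at least 50% of a coding transcript. A locus was left out if a second gene held over 25% as many bases, or its FPKM exceeded 3 times the midpoint of its bounds. Values were scaled by median of ratios, with factors of 0.915 to 1.20. Genes that reached 1 FPKM in 2 or more libraries were compared on log2(scaled FPKM + 1), which understates changes of low genes. The test was limma 3.58.1 in R 4.3.3 with a trend of variance on level (2 residual and 2.87 prior degrees of freedom), two-sided, Benjamini-Hochberg adjusted over all genes. It was tested on simulated data whose spread was taken from the wild type libraries, which differed less than the knockout libraries. This does not show how the test behaves at the wider knockout spread. An exact permutation test of 2 against 2 libraries cannot give p under 0.333. Named genes are all 36 regulators and up to 3 per list, the largest differences without overlap where the higher mean reached 2 scaled FPKM. Members, lists and tests were chosen with earlier results of these data known. The 16 planned and 3 added alternatives are given in the closing section.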

Additional observations from a re-analysis of the deposited data

Results flagged for a closer look

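Nr1i3 (CAR) had loci in every library that the main assignment left out because a neighbouring gene shares them. Given to the gene whose RefSeq body holds them, they had a mean of 59.7 ± 8.25 scaled FPKM (SD, n = 2) in knockout and 23.5 ± 0.0312 (SD, n = 2) in wild type. This signal lay outside the values used for the main comparison and above the level in the wild type libraries.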

How the results depend on the processing

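Of the 27 tested regulators, 15 kept the direction of their difference under every alternative run and 12 had a reversed value under at least 1. Regulators below wild type without overlap numbered 1 with values as deposited, 5 after quantile normalization and 5 after GC correction. Of all genes 9.21%, 25.7% and 23.4% lay below in these fits. Those above numbered 5 with a filter at 5 FPKM, which took Nr1h2, Rara and Rxrb out of the test. Regulators at an unadjusted p under 0.05 in limma numbered 6 with values as deposited, 4 with the highest locus per gene and 7 with the replicate block. At that p 865 of all genes were higher and 139 lower as deposited. With the highest locus 345 were higher and 344 lower, and with the block 488 and 363. The block changed no adjusted call of a regulator. The labels do not pair the numbers, and across genes the differences between replicates 1 and 2 of the 2 genotypes correlated at 0.0812. Genes past the adjusted threshold numbered 1 as deposited and 7 with absent genes set to 0. Genes higher at an unadjusted p under 0.05 numbered 292 with a filter at 5 FPKM and 865 as deposited, where 139 were lower. The Spearman correlation of the order was 0.924 with the highest locus. Leaving out 1 library at a time gave 11 to 14 regulators above, where 2604 to 3118 of all genes were. It gave 5 to 8 below, where 2594 to 3241 of all genes were, of 7867 to 7907 tested. It gave 1 to 455 genes past the adjusted threshold, 122 to 1280 higher and 129 to 792 lower at an unadjusted p under 0.05, and a Spearman correlation of 0.707 to 0.921. Reversed log2 differences with values as deposited were 0.083 for Hnf4a and 0.12 for Nr5a2. With the highest locus they were -0.065 for Cebpg, 0.034 for Nr5a2 and -0.079 for Ncor1. After quantile normalization they were -0.017 for Ncor1 and -0.029 for Ncoa1, after GC correction 0.055 for Nr5a2, and without loci of wide bounds -0.013 for Ncor1. With 1 library left out at a time, the log2 difference ran from -0.70 to 0.46 for Hnf4a, -0.030 to 0.29 for Cebpg, -0.62 to 0.084 for Nr1h4, -0.19 to 0.035 for Nr5a2, -0.13 to 1.71 for Esrra and -0.086 to 0.52 for Thrb. It ran from -0.30 to 0.30 for Ncor1, -0.0076 to 0.17 for Ncoa1, -0.075 to 0.33 for Ncoa2, -0.19 to 1.32 for Med1, -0.51 to 0.080 for Prox1 and -0.85 to 1.52 for Klf15. The cause was not tested. With 2 libraries a group and a single assembly each, low genes such as Ppard and fragmented ones such as Cebpd have the least support. Ppard was under 1 scaled FPKM in 3 libraries, and Cebpd loci spanned at most 29.7% of a transcript.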
